A study of Mus musculus with 9 samples.

Results

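Core histone genes encode the H2A, H2B, H3 and H4 proteins around which DNA is wound, and their transcripts were examined in 9 bulk RNA-seq libraries of neutrophils sorted from mouse lung. Members were chosen by gene symbol, taking the older Hist cluster names and the newer H2ac, H2bc, H3c and H4c names for the replication-dependent histones, and names starting with H2af or H3f3 for the variant histones. Of 22064 genes listed, 67 matched and 61 of these had values, among 18325 genes with values in all. The 61 comprised 54 replication-dependent and 7 variant histone genes.

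The neutrophils came from female BALB/c mice, and each of 3 groups had 3 libraries. In the Ly6Ghi and Ly6Glow groups, cells of the 4T1-LM3 line, a lung-metastatic derivative of the 4T1 mouse mammary carcinoma, had been injected orthotopically into the fat pad, and CD45+ cells with high or low Ly6g were sorted from lung at the macrometastatic (MACRO) stage. The NL group was Ly6g high cells sorted from normal lung by the same CD45+ gate, where the treatment field names no injection and the description field names the Ly6g high neutrophil group alone, without the tissue. The labels carry a cell line tag for all groups and give no age. Nothing in the labels says that the libraries of a group came from separate animals, so p-values measure only the spread between these samples, which may be technical. Estimated counts summed to 17200354, 17841807 and 17004235 in Ly6Ghi replicates 1 to 3, to 15267177, 16553629 and 16277066 in Ly6Glow, and to 17171045, 16570344 and 16996574 in NL. In its counts NL replicate 2 stood apart from NL replicates 1 and 3, with a chi-square per degree of freedom of 5.3 and 4.05 against 1.41 to 2.5 for the other pairs within a group, and calls that changed without it are named with each gene.

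Replication-dependent histone genes lie in clusters, are transcribed mainly while DNA is copied, and give mRNAs that usually end in a conserved stem-loop bound by SLBP in place of a poly(A) tail. Variant histones such as H2A.X, H2A.Z and H3.3 are made throughout the cell cycle from polyadenylated, mostly intron-containing genes and are placed into chromatin by dedicated chaperones. Mature neutrophils have left the cell cycle and are known for releasing chromatin as extracellular traps, in which histones are a main protein and citrullinated histone H3 is a common marker.

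Levels are given as CPM (counts scaled to a common library size by edgeR's TMM factors) unless FPKM is named. A gene was called, and is said to have risen or fallen, where its log2 fold change passed 0.58 in either direction and its adjusted p did not exceed 0.05 in edgeR's quasi-likelihood test with Benjamini-Hochberg adjustment over the 14108 genes tested. The 3 comparisons share libraries and are not independent of each other. Of the 61 histone genes with values, 21 passed edgeR's filter on low counts and were tested, 14 of them replication-dependent and 7 variant. The other 40, all replication-dependent, had between 0 and 25.9 estimated counts in a library, and 34 of them stayed under 10 in every library. Their summed level was 5.54, 6.32 and 4.89 CPM in Ly6Ghi, 3.41, 5.64 and 3.43 in Ly6Glow and 3.23, 1.73 and 2.16 in NL, so most replication-dependent genes were close to background in these libraries. The transcript of the sort marker itself, Ly6g, was close in Ly6Ghi and Ly6Glow despite the names of these groups, at 379.8, 361 and 380.1 CPM in Ly6Ghi, 385, 403 and 394 in Ly6Glow and 120.2, 120.2 and 118 in NL. In Ly6Glow over Ly6Ghi it was not called, with 0.076 (SE 0.0334, edgeR adjusted p = 0.0577) with TMM factors and -0.16 on log2(FPKM + 1), where the median of all genes moved by -0.20. Every Ly6Glow library lay above every Ly6Ghi library on CPM and below on FPKM, so the order of these groups depended on the scaling.

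The summed level of the replication-dependent histones was lowest in NL, intermediate in Ly6Ghi and highest in Ly6Glow, with most of it in a few genes such as H2ac18, while the 40 genes under the filter had their highest mean sum in Ly6Ghi. Summed over the 54 genes, their level was 94.1, 94.8 and 94.5 CPM in the Ly6Ghi libraries, 169, 176 and 158 in Ly6Glow and 50.8, 44 and 47.6 in NL, with no overlap between groups. The mean sum in Ly6Ghi was 1.99 times that in NL, and in Ly6Glow it was 1.78 times that in Ly6Ghi. On FPKM, which the authors scaled by transcript length and fragment number, the order of the group means was the same with smaller gaps, at 158 ± 0.856 in Ly6Ghi, 223 ± 13.5 in Ly6Glow and 103 ± 8.42 in NL (SD, n = 3). Even in Ly6Glow these transcripts made up a mean of 0.0135% of all counts, against 0.201% for the 7 variant genes. In bulk samples such as these, fewer cells carrying a transcript and less of it per cell cannot be told apart.

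Among the core types, H2A and H2B genes carried most of the replication-dependent sum. H2A genes summed to 42.6, 43.2 and 40 CPM in Ly6Ghi, 78.3, 81.7 and 69.4 in Ly6Glow and 24, 19.4 and 22.1 in NL. The H2B sums were 41.2, 41.3 and 42.9, 78, 79.4 and 76.4 and 23, 20.9 and 21.5 CPM in the same groups. Both types kept the 3 groups apart, in the order NL, Ly6Ghi, Ly6Glow. H4 genes summed to 8.8, 7.91 and 9.53 CPM in Ly6Ghi, 10.8, 12.2 and 10.6 in Ly6Glow and 2.16, 2.42 and 2.88 in NL. Replication-dependent H3 genes reached 1.54, 2.42 and 1.98 CPM in Ly6Ghi, 2.11, 2.48 and 2.06 in Ly6Glow and 1.62, 1.28 and 1.08 in NL, resting on 25.2, 41 and 33 estimated counts, 27, 34 and 27 and 36, 28 and 24. At that depth no order of the groups can be read for these H3 genes.

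**Figure D1:**
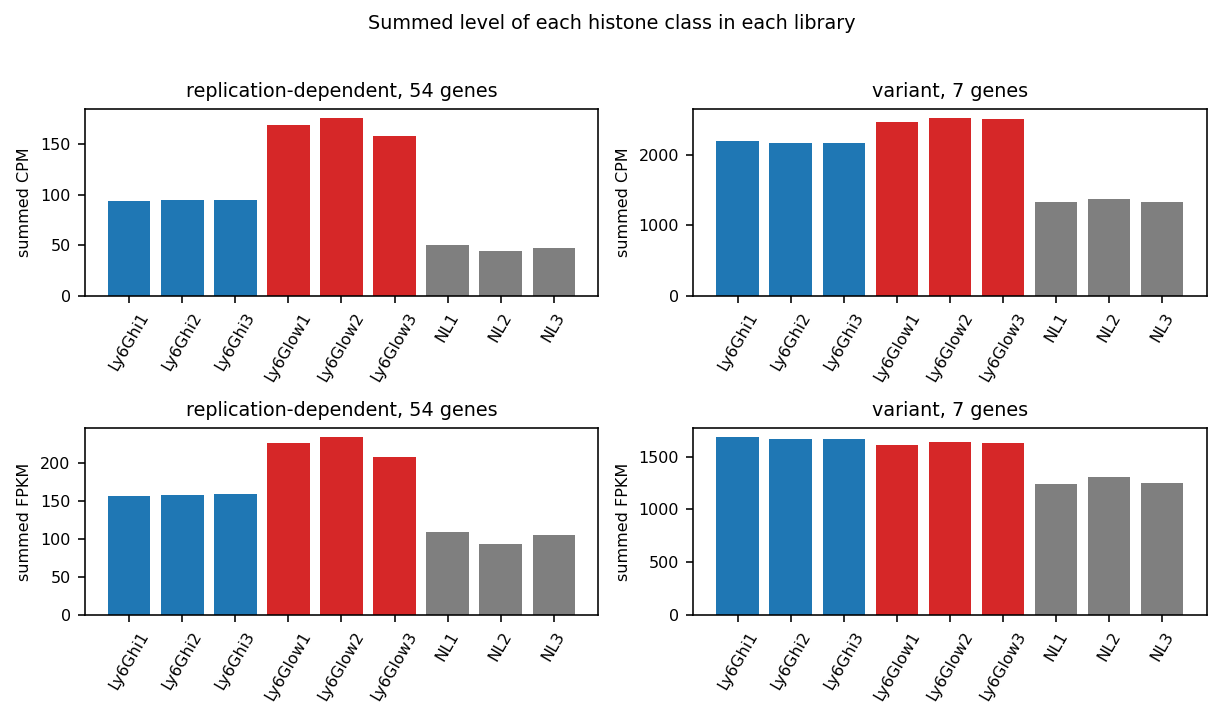
Summed level of the 54 replication-dependent and the 7 variant histone genes in each library, as bars, in CPM (upper plots) and in FPKM (lower plots). The replication-dependent mean was 47.5 CPM in NL, 94.5 in Ly6Ghi and 168 in Ly6Glow, with the same order on FPKM, while the variant mean of Ly6Glow lay above that of Ly6Ghi on CPM and below it on FPKM.

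Between Ly6Ghi and NL, 5 of the 14 tested replication-dependent genes rose (26.3% of all tested genes did) and 0 fell (36.6% of all tested genes), with a median log2 fold change of 1.12 against -0.09 over all tested genes. Since H2bc1 and H2bc18 passed the filter through Ly6Glow alone, and H2bc8 and H2ac19 through Ly6Ghi alone, these counts describe the members tested, and among the other 10 members 4 rose. With 1 library left out further members passed the filter: without NL replicate 1 or NL replicate 2, 8 rose, of which 7 were among the 14, and without Ly6Glow replicate 1, Ly6Glow replicate 3, NL replicate 2 or NL replicate 3, 1 outside the 14, H3c14, fell. In Ly6Ghi and NL all estimated counts of H3c14 lay in NL replicate 1 (25.9). Of the 7 variant genes, 6 rose and 0 fell, with a median of 1.33. Past the fold threshold at an unadjusted p under 0.05 edgeR placed 0 of either class lower, DESeq2 called 0 of either lower, and without a fold threshold edgeR called 1 variant gene, H3f3b, lower. Without the filter on low counts edgeR called 12 of 54 replication-dependent genes higher, 5 of the 14 and 7 others, and 1 lower, which was outside the 14. In that setting 3940 of all 18299 genes tested were called higher and 5735 lower. When limma was run on log2(FPKM + 1), the median of all genes moved by -0.39 and 21.8% of called genes were higher, against 41.8% with edgeR, and 2 of the 14 and 3 variant genes were called higher.

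Between Ly6Glow and Ly6Ghi, both from macrometastatic lung, 8 of the 14 replication-dependent genes rose (9.29% of all tested genes did) and 2 fell (15.9%), with a median of 0.84 against -0.04 over all tested genes. Of the 7 variant genes 0 rose and 3 fell with edgeR, with a median of 0.22, while 0 were higher past the fold threshold at an unadjusted p under 0.05 or with DESeq2, and 3 were called higher without a fold threshold. Leaving out the 4 members that passed the filter through 1 group alone, 6 of the other 10 replication-dependent genes rose and 1 fell. Without Ly6Ghi replicate 1 or Ly6Glow replicate 1, 4 of the 14 rose (with H3c14, outside the 14, the latter gave 5), and without Ly6Glow replicate 3, 1 fell. With DESeq2 5 rose and 1 fell. On log2(FPKM + 1), where the median of all genes moved by -0.20 and 14.1% of called genes were higher against 36.8%, 3 of the 14 rose and 1 fell, and 3 genes under the filter (H2ac13, H2ac6 and H2bc12) were also called lower.

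Between Ly6Glow and NL, 10 replication-dependent genes rose (28.7% of all tested genes did) and 1 fell (40.8%), with a median of 1.62 against -0.16 over all tested genes, and 8 rose and 1 fell among the 10 members that did not pass the filter through 1 group alone. Of the variant genes 3 rose and 0 fell with edgeR, with a median of 0.15, and 0 were lower at an unadjusted p under 0.05 or with DESeq2. On log2(FPKM + 1), with a shift of -0.55 in the median of all genes and 14.8% of called genes higher against 41.3%, 0 replication-dependent and 2 variant genes were called lower. Upper-quartile factors moved the median of all genes by -0.19 in each comparison with NL. In 5 replication-dependent genes (H2ac18, H2bc4, H2bc6, H4c9 and Hist1h4n) and 2 variant genes (H3f3a and H2afj) the 3 groups did not overlap and ran NL, Ly6Ghi, Ly6Glow from low to high (16.7% of all tested genes). In 3 variant genes, H2afx, H2afz and H2afv, the Ly6Ghi libraries lay above all others (13.9%). Of the tested replication-dependent genes this held only in H2bc8, which was tested through Ly6Ghi alone. Among those under the filter it held in H2ac1 and H2bc12. Values of single genes on log2(FPKM + 1) or with upper-quartile factors carry the shifts of all genes given here.

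**Figure D2:**
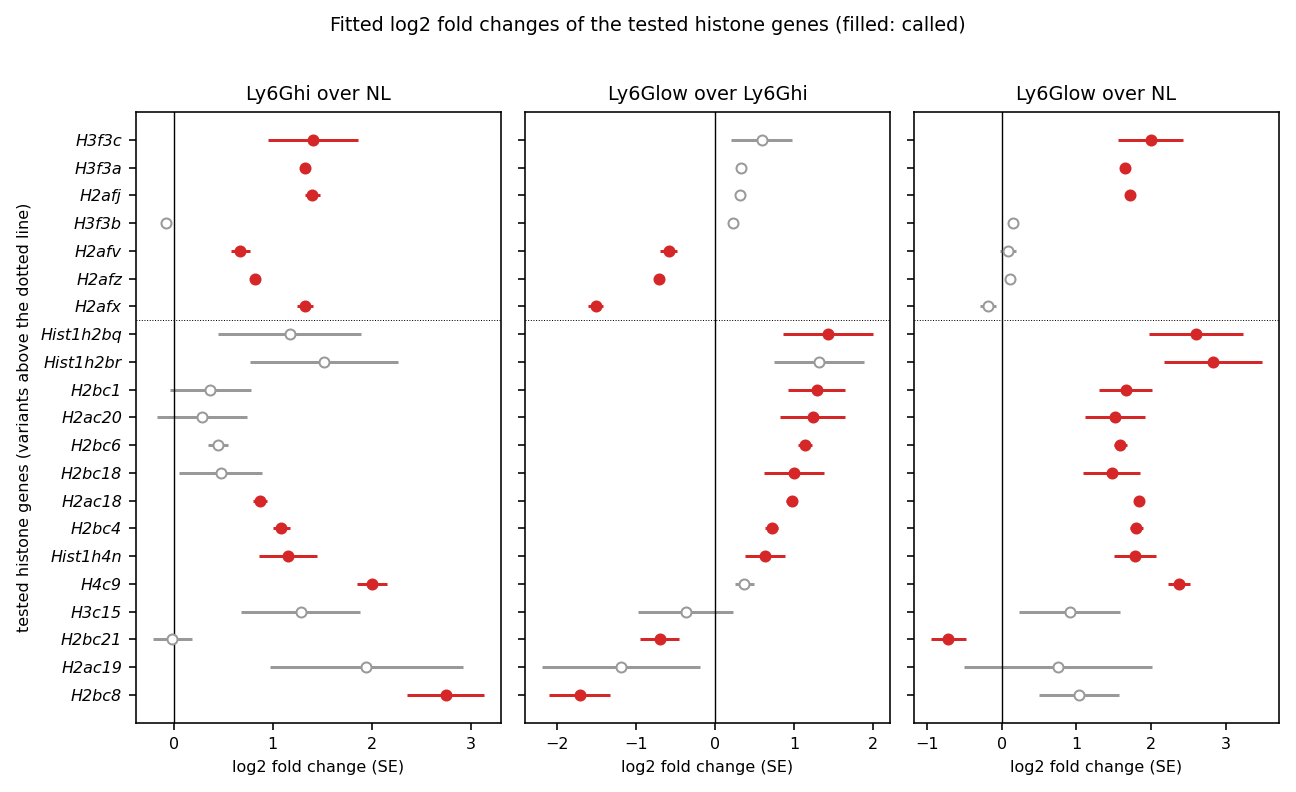
Fitted log2 fold change (edgeR) of each of the 21 tested histone genes in the 3 comparisons, with bars for the standard error, called genes filled and variant genes above the dotted line. In Ly6Glow over Ly6Ghi, H2ac18 (0.97) and H2bc6 (1.14) lay to the right of 0, while H2afx (-1.51) and H2afz (-0.71) lay to the left, and none of these 4 changed sign under another scaling.

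Among H2A genes, H2ac18 (NCBI Gene 15267, chr3:96245497-96246052, plus strand, GRCm38), a canonical H2A gene of the chromosome 3 cluster, had the highest count of the replication-dependent class. Its level was 38.7, 38.9 and 34.7 CPM in Ly6Ghi, 74.7, 77.4 and 67.2 in Ly6Glow and 21.4, 18.5 and 21.3 in NL. Every Ly6Glow library lay above every Ly6Ghi library, and these above every NL library. H2ac18 rose in Ly6Ghi over NL with a log2 value of 0.87 (SE 0.0715, edgeR adjusted p = 1.9e-10), and rose further in Ly6Glow over Ly6Ghi by 0.97 (SE 0.0648, edgeR adjusted p = 2.81e-11). From NL to Ly6Glow its change was 1.84 (SE 0.0676, edgeR adjusted p = 1.01e-16). On log2(FPKM + 1) the first of these was 0.40 and under the threshold, or 0.79 relative to the shift of all genes. The neighbouring gene H2ac19 (chr3:96239779-96240374, minus strand) shares all of its stretches of 100 bases with H2ac18, so the split of reads between them is uncertain. Of the H2ac18 stretches, 88.3% also occur in genes outside the members, so its counts, alone or with H2ac19, are uncertain too. H2ac19 itself had 13.8, 0 and 27.3 estimated counts in Ly6Ghi, 0, 13.7 and 0 in Ly6Glow and 13.9, 0 and 0 in NL, and was called in none of the 3 comparisons with edgeR. Its values scattered widely within each group: with fitted values that rest on libraries at 0, it was called in Ly6Ghi over NL without Ly6Ghi replicate 2 (2.55) or NL replicate 1 (6.80), in Ly6Glow over Ly6Ghi without Ly6Glow replicate 2 (-6.90), and in Ly6Glow over NL without NL replicate 1 (5.60), and it took the opposite direction there without Ly6Glow replicate 2 (-4.94). With both copies counted together, an alternative chosen after the data were seen, the pair rose by 0.89 (SE 0.0715, edgeR adjusted p = 1.1e-10) in Ly6Ghi over NL and by 0.94 (SE 0.0648, edgeR adjusted p = 3.45e-11) in Ly6Glow over Ly6Ghi.

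The promoter of H2ac18 is shown with those of H2bc8, H4c9 and H2afz as examples, taken after the values were seen. Each runs from 250 bases before to 50 bases after the RefSeq start (GRCm38.p6), at chr3:96245247-96245546 (plus strand), chr13:23571150-23571449 (plus strand), chr13:22041313-22041612 (minus strand) and chr3:137864237-137864536 (plus strand). Capitals mark matches, on either strand, to the motifs searched, which were CCAAT for the box that NF-Y binds, TATAAA for the TATA box, ATTTGCAT for the octamer, TTTGAA for the CHR element, and for an E2F site either TTTCGCGC or, as another form, TTTGGCGC.
H2ac18: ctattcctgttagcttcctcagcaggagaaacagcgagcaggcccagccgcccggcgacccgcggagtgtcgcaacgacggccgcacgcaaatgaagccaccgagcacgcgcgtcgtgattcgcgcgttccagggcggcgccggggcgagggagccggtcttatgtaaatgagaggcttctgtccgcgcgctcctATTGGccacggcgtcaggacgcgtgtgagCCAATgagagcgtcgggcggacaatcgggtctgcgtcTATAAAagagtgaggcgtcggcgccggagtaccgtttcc
H2bc8: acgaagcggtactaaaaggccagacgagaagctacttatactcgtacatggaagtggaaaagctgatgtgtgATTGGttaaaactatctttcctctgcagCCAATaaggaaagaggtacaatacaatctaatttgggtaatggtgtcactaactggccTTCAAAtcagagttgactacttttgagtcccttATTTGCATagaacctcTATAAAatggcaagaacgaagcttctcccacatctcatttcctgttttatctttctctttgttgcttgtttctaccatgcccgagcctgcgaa
H4c9: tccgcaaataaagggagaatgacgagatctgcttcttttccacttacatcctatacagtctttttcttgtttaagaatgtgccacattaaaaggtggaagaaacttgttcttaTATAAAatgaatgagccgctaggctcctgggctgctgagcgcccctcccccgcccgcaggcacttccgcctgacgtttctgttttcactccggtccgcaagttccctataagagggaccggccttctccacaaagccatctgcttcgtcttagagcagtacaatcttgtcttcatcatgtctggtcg
H2afz: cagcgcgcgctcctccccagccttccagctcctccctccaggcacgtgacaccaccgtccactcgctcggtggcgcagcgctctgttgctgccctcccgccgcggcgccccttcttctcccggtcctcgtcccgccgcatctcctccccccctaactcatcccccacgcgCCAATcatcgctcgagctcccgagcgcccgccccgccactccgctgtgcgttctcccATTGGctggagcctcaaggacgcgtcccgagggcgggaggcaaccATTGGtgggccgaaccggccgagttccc
H2ac18 held 2 matches to CCAAT and 1 to TATAAA. H2bc8 held 2 matches to CCAAT and 1 each to the TATA box, the octamer and the CHR element, while H4c9 held 1 match to TATAAA and H2afz 3 to CCAAT. Of the 49 replication-dependent members with a promoter entry, 43 held CCAAT (37.4% of 32851 mouse promoters did), 27 the TATA box (13.6%), 13 the octamer (1.74%), 24 the CHR element (17.9%) and 9 an E2F match (0.813%). Of 6 variant members, 5 held CCAAT, 1 each the TATA box, the octamer and the CHR element, and 0 an E2F match. In all, 55 of the 61 members had an entry, and those missing were H2afx, H2bc21, H2bc4, H3c1, H3c7 and H4c14. A match describes the letters in the window and was not tested as a binding site.

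H2ac20 (NCBI Gene 319176, chr3:96220413-96220880, minus strand), the remaining tested H2A gene of the same cluster, had far lower counts. Its level was 0.492, 0.767 and 1.18 CPM in Ly6Ghi, 2.36, 1.58 and 1.83 in Ly6Glow and 1.3, 0.456 and 0.225 in NL. Ly6Glow was the highest group, and Ly6Ghi and NL overlapped. H2ac20 rose in Ly6Glow over NL by 1.52 (SE 0.399, edgeR adjusted p = 0.00138) and in Ly6Glow over Ly6Ghi by 1.23 (SE 0.409, edgeR adjusted p = 0.0141). The latter call was lost without Ly6Ghi replicate 1 (0.97) or Ly6Glow replicate 1 (1.06), and both were lost on log2(FPKM + 1) (0.75 each). With 1 library left out, H2ac20 ranged from 1.11 to 2.46 in Ly6Glow over NL. In Ly6Ghi over NL its value of 0.29 was not called, became called without NL replicate 1 (1.23) and was negative without Ly6Ghi replicate 3 (-0.057) or NL replicate 3 (-0.12).

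Among H2B genes, H2bc4 and H2bc6 of the large chromosome 13 cluster followed the pattern of H2ac18. H2bc4 (NCBI Gene 68024, chr13:23684199-23692480, plus strand) had 16.8, 18.2 and 18.7 CPM in Ly6Ghi, 30.9, 29.5 and 27.6 in Ly6Glow and 9.57, 7.76 and 7.89 in NL. H2bc6 (NCBI Gene 319179, chr13:23583670-23621124, minus strand) had 9.04, 8.32 and 8.54, 17.6, 20 and 19.4 and 5.84, 6.25 and 6.89 CPM in the same groups. In both genes the groups were apart, with NL lowest and Ly6Glow highest. H2bc4 rose by 1.09 (SE 0.0881, edgeR adjusted p = 1.59e-10) in Ly6Ghi over NL and by 0.71 (SE 0.0781, edgeR adjusted p = 7.47e-08) in Ly6Glow over Ly6Ghi, although on log2(FPKM + 1) these were 0.56 and 0.43 and not called. H2bc6 did not pass the fold threshold in Ly6Ghi over NL, at 0.45 (SE 0.10, edgeR adjusted p = 0.000326), but rose in Ly6Glow over Ly6Ghi by 1.14 (SE 0.0906, edgeR adjusted p = 4.74e-10) and over NL by 1.59 (SE 0.0906, edgeR adjusted p = 2.99e-13).

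Hist1h2bq and Hist1h2br (chr13:21806412-21810199, minus strand, and chr13:21833743-21837530, plus strand, NCBI Gene 665596 and 665622) are near-identical H2B genes that share 94.8% and 86.4% of their stretches of 100 bases. The split of estimated counts between them varied from library to library. Hist1h2bq had 14.2, 154 and 40.9 estimated counts in Ly6Ghi, 134, 31.8 and 273 in Ly6Glow and 38.3, 5.11 and 80.7 in NL. Hist1h2br had 125, 0 and 133, 156, 293 and 56 and 45, 76.2 and 0 estimated counts in these groups. Within each group a library high for one copy was low for the other. In estimated counts the single genes overlapped between groups. On CPM they did too, except that every Ly6Glow library lay above every NL library for Hist1h2br. On FPKM every Ly6Glow library lay above all others for Hist1h2br, and above every NL library for Hist1h2bq. The sum of both copies was 139, 154 and 173 estimated counts in Ly6Ghi, 291, 325 and 329 in Ly6Glow and 83.3, 81.3 and 80.7 in NL, with the groups fully apart. Counted together, the pair rose by 1.35 (SE 0.111, edgeR adjusted p = 1.51e-10) in Ly6Ghi over NL, by 1.37 (SE 0.0864, edgeR adjusted p = 7.71e-12) in Ly6Glow over Ly6Ghi and by 2.72 (SE 0.0965, edgeR adjusted p = 3.41e-17) in Ly6Glow over NL.

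Taken singly, Hist1h2bq was called in Ly6Glow over Ly6Ghi at 1.43 (SE 0.571, edgeR adjusted p = 0.0388) and in Ly6Glow over NL at 2.60 (SE 0.625, edgeR adjusted p = 0.000612), and Hist1h2br in Ly6Glow over NL at 2.83 (SE 0.653, edgeR adjusted p = 0.000409). These calls are uncertain. With DESeq2 the Ly6Glow over Ly6Ghi call of Hist1h2bq (1.51) and the Ly6Glow over NL call of Hist1h2br (2.92) were lost, as they were on log2(FPKM + 0.1) (0.71 and 3.16). The former was also lost on log2(FPKM + 1) (0.59), with a replicate block (1.30), and without Ly6Ghi replicate 1 (0.95), Ly6Ghi replicate 3 (1.17), Ly6Glow replicate 1 (1.45) or Ly6Glow replicate 3 (0.63). Hist1h2br became called in that comparison with DESeq2's size factors (1.38), with the 6 libraries alone (1.32), with FPKM of at least 1 in 3 libraries (1.54), and without Ly6Ghi replicate 3 (1.78), Ly6Glow replicate 3 (1.73), NL replicate 2 (1.31) or NL replicate 3 (1.31). In Ly6Ghi over NL, Hist1h2bq was called with FPKM of at least 1 in 3 libraries (1.17), and without Ly6Ghi replicate 1 (1.66) or NL replicate 3 (2.11) and negative without Ly6Ghi replicate 2 (-0.13), and Hist1h2br was called without Ly6Ghi replicate 2 (2.12), Ly6Glow replicate 3 (1.53) or NL replicate 2 (2.37).

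**Figure D3:**
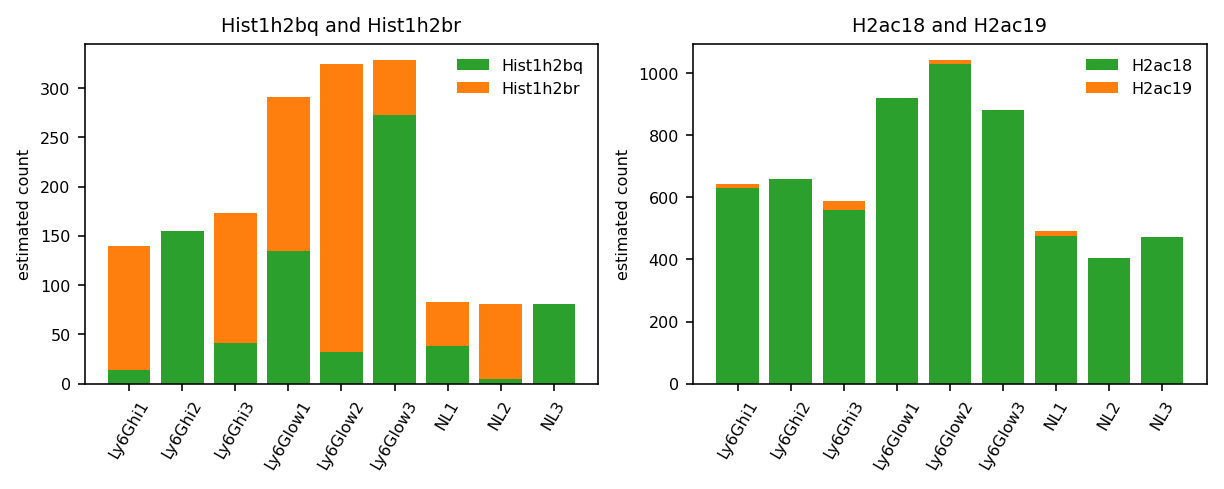
Estimated counts per library of 2 pairs of near-identical copies, as stacked bars, with Hist1h2bq and Hist1h2br on the left and H2ac18 and H2ac19 on the right. The split between Hist1h2bq and Hist1h2br varied within every group, while their sums lay between 80.7 and 83.4 in NL, 139 and 173 in Ly6Ghi, and 291 and 329 in Ly6Glow, and nearly all counts of the other pair were given to H2ac18.

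H2bc8 (NCBI Gene 319181, chr13:23571400-23571863, plus strand) had low counts. Its level was 2.09, 1.95 and 1.86 CPM in Ly6Ghi, 0.975, 0.527 and 0.305 in Ly6Glow and 0.494, 0.0456 and 0.315 in NL. All 3 Ly6Ghi libraries lay above the rest, and Ly6Glow and NL overlapped. Its log2 fold change was 2.75 in Ly6Ghi over NL and -1.71 in Ly6Glow over Ly6Ghi. In Ly6Glow over NL it was not called (1.04), but became so with DESeq2 (1.15) and without Ly6Glow replicate 3 (1.36) or NL replicate 1 (1.67). H2bc8 was tested only because Ly6Ghi, where it was high, cleared the filter, so its calls in comparisons with Ly6Ghi are given no weight here, and 39.7% of its stretches are shared with H2bc4.

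The other H2B genes were near the limit of the filter. H2bc21 (NCBI Gene 319190, chr3:96221072-96223738, plus strand), an H2B form known from olfactory neurons, had 1.6, 1.65 and 1.67 CPM in Ly6Ghi, 1.14, 0.978 and 0.915 in Ly6Glow and 1.62, 1.78 and 1.58 in NL. Ly6Glow was lowest, and the gene fell there, at -0.70 (SE 0.248, edgeR adjusted p = 0.0208) against Ly6Ghi and -0.71 (SE 0.236, edgeR adjusted p = 0.00806) against NL. The first call was lost without Ly6Glow replicate 2 (-0.68) or Ly6Glow replicate 3 (-0.64), and both were lost with DESeq2 (-0.64 and -0.63) and on log2(FPKM + 1) (-0.28 and -0.48). In Ly6Ghi over NL its value of -0.014 had no settled sign, being 0.014 without Ly6Ghi replicate 1 and 0.044 without NL replicate 2. H2bc1 (NCBI Gene 319177, chr13:23933725-23934156, minus strand), the testis H2B gene, had 0.80, 0.472 and 0.433 CPM in Ly6Ghi, 1.46, 1.66 and 1.07 in Ly6Glow and 0.674, 0.319 and 0.315 in NL. Its log2 fold change in Ly6Glow was 1.29 over Ly6Ghi and 1.66 over NL. H2bc18 (NCBI Gene 319189, chr3:96269700-96270192, plus strand) had 0.492, 0.708 and 0.371 CPM in Ly6Ghi, 1.3, 1.13 and 0.762 in Ly6Glow and 0.225, 0.502 and 0.406 in NL. Its value in Ly6Glow over Ly6Ghi, 1.00, was not called with DESeq2 (1.08), without the filter (0.98), on log2(FPKM + 1) (0.47) or without any 1 of 4 libraries, and over NL it was 1.47, or 0.47 and uncalled on log2(FPKM + 1). H2bc1 and H2bc18 were tested only because Ly6Glow, where they were high, cleared the filter, so their calls there are given no weight here.

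Of the H4 genes, H4c9 (NCBI Gene 319158, chr13:22040960-22041362, minus strand) had the highest count. Its level was 6.95, 6.38 and 7.43 CPM in Ly6Ghi, 8.61, 10.2 and 7.93 in Ly6Glow and 1.62, 1.78 and 1.76 in NL. NL was far below both macrometastatic groups, which lay close together. H4c9 rose in Ly6Ghi over NL by 2.00 (SE 0.148, edgeR adjusted p = 3.18e-11) and in Ly6Glow over NL by 2.37 (SE 0.147, edgeR adjusted p = 1.21e-12), whereas the difference between Ly6Glow and Ly6Ghi was 0.37 (SE 0.121, edgeR adjusted p = 0.0127), under the fold threshold. Hist1h4n (NCBI Gene 319161, chr13:21831792-21832197, minus strand) had 1.17, 0.945 and 1.24 CPM in Ly6Ghi, 1.87, 1.58 and 1.75 in Ly6Glow and 0.449, 0.456 and 0.586 in NL. Its groups were also apart, and 80.7% of its stretches are shared with Hist1h4m, whose values are blank, so its counts are uncertain. Hist1h4n rose by 1.15 (SE 0.291, edgeR adjusted p = 0.000996) in Ly6Ghi over NL, although by 0.46 and uncalled on log2(FPKM + 1). The rise of 0.63 (SE 0.252, edgeR adjusted p = 0.0384) in Ly6Glow over Ly6Ghi kept its sign throughout, but the call was lost without Ly6Ghi replicate 1 (0.66), Ly6Ghi replicate 2 (0.52), Ly6Glow replicate 1 (0.57), Ly6Glow replicate 2 (0.69) or Ly6Glow replicate 3 (0.62), with DESeq2 (0.70), without the filter on low counts (0.61), with a replicate block (0.63) and on log2(FPKM + 1) (0.31).

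Among replication-dependent H3 genes only H3c15 (NCBI Gene 97114, chr3:96238479-96239127, minus strand) passed the filter. It had 1.05, 1.12 and 1.05 CPM in Ly6Ghi, 1.22, 0 and 1.3 in Ly6Glow and 0, 0.73 and 0.586 in NL. Every Ly6Ghi library lay above every NL library, Ly6Glow overlapped both, and no comparison was called. It shares 61.6% of its stretches with H3c14, which had estimated counts only in the libraries where H3c15 had 0. These were 20.98 in Ly6Glow replicate 2 and 25.9 in NL replicate 1. The split of reads between both genes is thus uncertain, and so are the group order of H3c15 and the calls of either gene. In Ly6Ghi over NL H3c15 was called with DESeq2's size factors (1.31), with the 6 libraries of the comparison alone (1.29), and without Ly6Glow replicate 2 (1.29) or NL replicate 2 (1.85). Without Ly6Glow replicate 2 it was also called in Ly6Glow over NL (1.52) and changed sign in Ly6Glow over Ly6Ghi (0.22).

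A further group of near-identical H2A copies, H2ac10, H2ac12, H2ac13, H2ac4, H2ac7 and Hist1h2an, was singled out after its values were seen, since none of its 6 genes was tested alone. Summed, they had 13.8, 22.3 and 14.3 estimated counts in Ly6Ghi, 2.33, 2.11 and 5.2 in Ly6Glow and 6.77, 0 and 4.32 in NL. Ly6Ghi was highest, and since the group was chosen for its values no test of it is given.

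The histone stem-loop is shown because it sets how most replication-dependent transcripts end, while the libraries were made from poly(A)-selected RNA. It was searched for by its letters, as a pattern of 16 bases, in the sequences of GENCODE M21 transcripts. Matches were found in 37 of the 54 replication-dependent members, in 1 variant member (H2afx), and in 86 of 55450 genes in all (0.155%). A match describes the letters and was not tested as a folded stem-loop. Capitals mark the 4-base loop, with the stem in lower case, at chr3:96246032-96246047 (plus strand), chr13:23585531-23585546 (minus strand), chr13:23571843-23571858 (plus strand), chr13:22040966-22040981 (minus strand), chr13:21831798-21831813 (minus strand) and chr9:44335240-44335255 (plus strand) in GRCm38.
H2ac18: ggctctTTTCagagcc
H2bc6: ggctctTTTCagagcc
H2bc8: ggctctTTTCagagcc
H4c9: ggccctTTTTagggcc
Hist1h4n: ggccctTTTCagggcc
H2afx: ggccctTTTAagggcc
The annotated transcript ran 35 bases past the stem-loop in H2ac18 and 31 in Hist1h4n, but 330 bases in H4c9, 155 in H2bc8, 822 in H2afx and 1861 in H2bc6. No match was found in H2bc4, Hist1h2bq, Hist1h2br, H2bc21, H2bc1 or H2bc18. Only annotated transcripts were searched, and those of H2bc1 and H2bc18 had 384 and 381 bases against gene spans of 432 and 493. A stem-loop past such an end would be missed, so the 37 may be too low a count. Spliced transcripts were annotated for 5 replication-dependent members, namely H2bc4, H2bc6, Hist1h2bp, Hist1h2bq and Hist1h2br, so the H2B genes with the highest counts were among those with transcripts that need not end at a stem-loop. Which transcript form the counts came from was not tested.

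**Figure D4:**
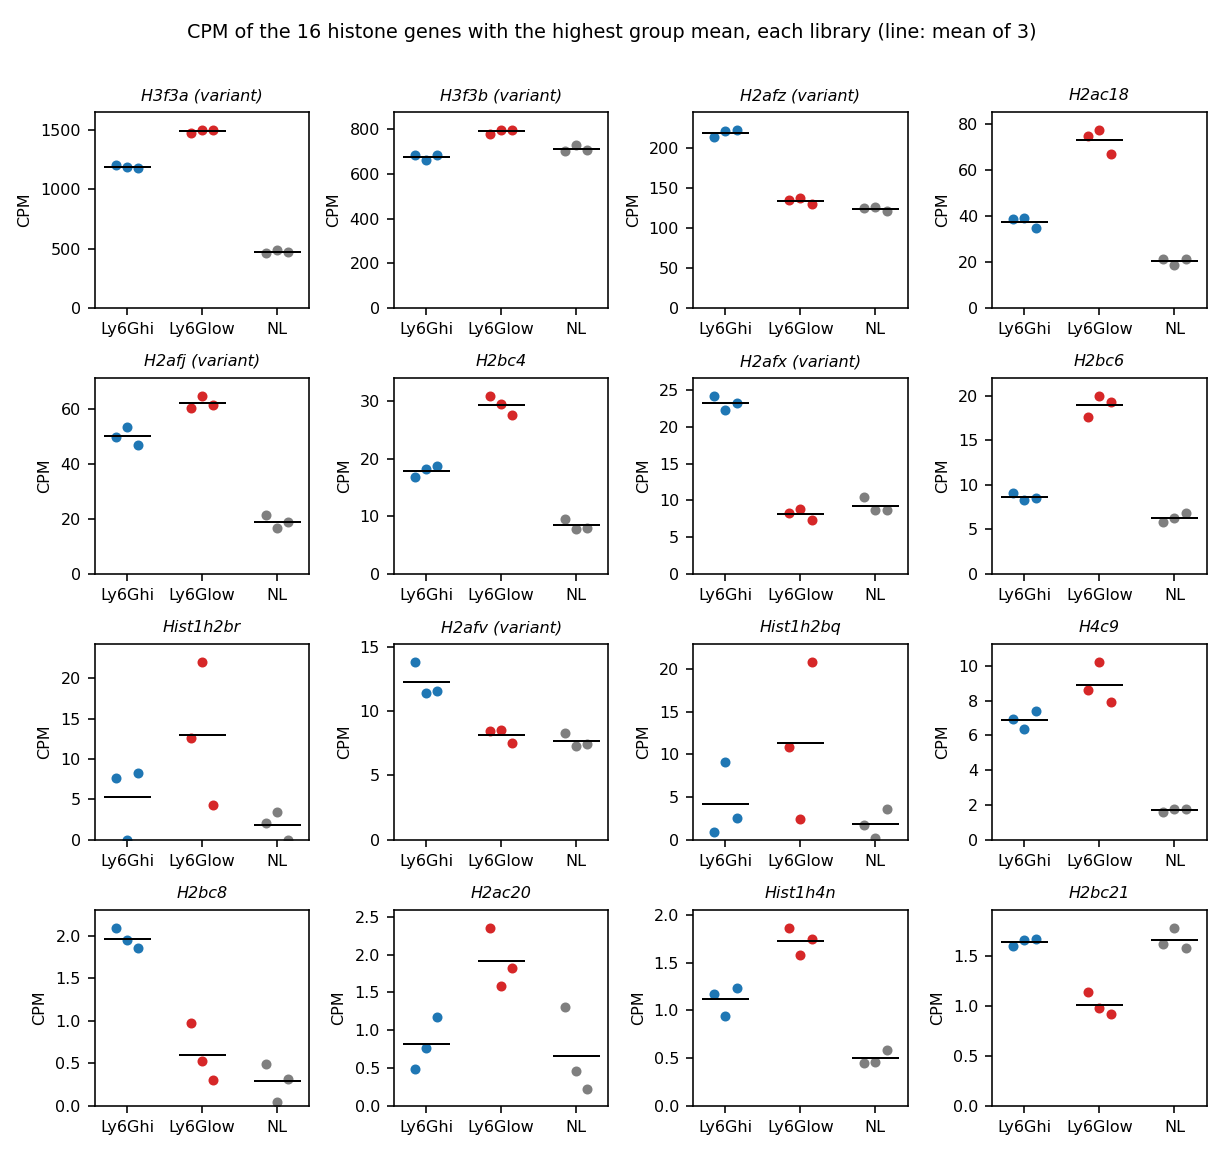
CPM of the 16 histone genes with the highest group mean, with each library as a point, the mean of 3 as a line and a linear axis of its own for each gene. H2ac18, H2bc4 and H2bc6 were highest in Ly6Glow, H2afx, H2afz and H2afv in Ly6Ghi, and H3f3a lay between 461 and 488 in NL against at least 1177 elsewhere.

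Of the variant histones, the H3.3 genes H3f3a and H3f3b were the most abundant and differed from each other. H3f3a (NCBI Gene 15078, chr1:180802560-180813605, minus strand) had 1209.9, 1192 and 1177 CPM in Ly6Ghi, 1476, 1503 and 1499 in Ly6Glow and 461, 488 and 473 in NL. H3f3b (NCBI Gene 15081, chr11:116021961-116026039, minus strand), which encodes the same protein, had 687, 661 and 686, 780.4, 795 and 798 and 704, 731 and 706 CPM. H3f3a set NL far below the macrometastatic groups, whereas H3f3b differed less between groups on CPM and on FPKM was highest in NL, at 329 ± 7.04 in Ly6Ghi, 325 ± 3.51 in Ly6Glow and 478 ± 14.8 in NL (SD, n = 3). H3f3a rose by 1.33 (SE 0.0301, edgeR adjusted p = 2.59e-20) in Ly6Ghi over NL and by 1.66 (SE 0.0303, edgeR adjusted p = 7.54e-22) in Ly6Glow over NL, whereas the step from Ly6Ghi to Ly6Glow, 0.32 (SE 0.0294, edgeR adjusted p = 4.08e-09), was under the fold threshold. H3f3b was called in no comparison: its log2 fold change was -0.074 in Ly6Ghi over NL, where log2(FPKM + 1) gave -0.54 (-0.15 relative to the shift of all genes), 0.22 in Ly6Glow over Ly6Ghi, where log2(FPKM + 1) gave -0.018, and 0.15 in Ly6Glow over NL, where upper-quartile factors gave -0.043, a minimum of 10 counts in every library -0.035 and log2(FPKM + 1) -0.55 (-0.0074 relative to the shift of all genes).

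The ratio of H3f3a to H3f3b, noticed after the values were seen, was taken on FPKM within each library, where library scaling cancels. It was 3.32, 3.4 and 3.22 in Ly6Ghi, 3.57, 3.56 and 3.55 in Ly6Glow and 1.23, 1.26 and 1.26 in NL. The macrometastatic groups lay close together and NL far below them, with means of 3.31 ± 0.0866, 3.56 ± 0.0116 and 1.25 ± 0.0141 (SD, n = 3). H3f3c (NCBI Gene 625328, chr2:119665116-119666152, minus strand), annotated as a processed pseudogene sharing 53.8% of its stretches with H3f3a, had 0.80, 0.59 and 0.928 CPM in Ly6Ghi, 0.731, 1.35 and 1.37 in Ly6Glow and 0.135, 0.548 and 0.18 in NL. Its calls in Ly6Ghi over NL (1.41 (SE 0.455, edgeR adjusted p = 0.00718)) and Ly6Glow over NL (1.99 (SE 0.437, edgeR adjusted p = 0.000244)) are uncertain for that reason, and both were lost on log2(FPKM + 1) (0.33 and 0.48). With 1 library left out, H3f3c ranged from 1.07 to 2.24 in Ly6Ghi over NL and from 1.65 to 2.83 in Ly6Glow over NL.

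H2afj (NCBI Gene 232440, chr6:136808248-136810074, plus strand) encodes H2A.J, a variant known to build up in senescent cells. It had 49.7, 53.5 and 46.8 CPM in Ly6Ghi, 60.3, 64.7 and 61.5 in Ly6Glow and 21.3, 16.7 and 18.7 in NL. The groups were apart in the order NL, Ly6Ghi, Ly6Glow, as for H3f3a. H2afj rose by 1.40 (SE 0.0718, edgeR adjusted p = 4.9e-14) in Ly6Ghi over NL and by 1.72 (SE 0.0719, edgeR adjusted p = 1.09e-15) in Ly6Glow over NL, with 0.31 (SE 0.0657, edgeR adjusted p = 0.000332) between Ly6Glow and Ly6Ghi, under the fold threshold.

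H2afx, H2afz and H2afv were highest in Ly6Ghi. H2afx (NCBI Gene 15270, chr9:44334715-44336077, plus strand), whose protein H2A.X is phosphorylated at DNA breaks, had 24.2, 22.4 and 23.2 CPM in Ly6Ghi, 8.28, 8.88 and 7.39 in Ly6Glow and 10.5, 8.62 and 8.7 in NL. It rose in Ly6Ghi over NL by 1.33 (SE 0.0828, edgeR adjusted p = 1.67e-12) and fell in Ly6Glow over Ly6Ghi, at -1.51 (SE 0.095, edgeR adjusted p = 1.01e-11). Ly6Glow and NL overlapped, and their difference of -0.18 (SE 0.106, edgeR adjusted p = 0.121) was not called, although on log2(FPKM + 1) it was called lower (-0.76, or -0.21 relative to the shift of all genes). H2afz (NCBI Gene 51788, chr3:137864487-137866922, plus strand) and H2afv (NCBI Gene 77605, chr11:6427226-6444511, minus strand) encode closely related forms of H2A.Z, a variant found at promoters. H2afz had 213, 221 and 223 CPM in Ly6Ghi, 135, 138 and 130.0 in Ly6Glow and 125, 126 and 121 in NL. H2afv had 13.8, 11.4 and 11.6, 8.45, 8.5 and 7.55 and 8.31, 7.25 and 7.48 CPM. Both genes set Ly6Ghi above the other groups, with Ly6Glow close to NL. H2afz rose by 0.82 (SE 0.0365, edgeR adjusted p = 3.77e-15) in Ly6Ghi over NL and fell in Ly6Glow over Ly6Ghi, at -0.71 (SE 0.0378, edgeR adjusted p = 6.02e-13), the former being 0.36 and uncalled on log2(FPKM + 1). H2afv rose by 0.67 (SE 0.0977, edgeR adjusted p = 1.61e-06) in Ly6Ghi over NL, which upper-quartile factors (0.48), a minimum of 10 counts in every library (0.50) and log2(FPKM + 1) (0.17) brought under the threshold. Its fall in Ly6Glow over Ly6Ghi, -0.59 (SE 0.107, edgeR adjusted p = 7.62e-05), was lost without Ly6Ghi replicate 1 (-0.50) or Ly6Glow replicate 3 (-0.54) and with DESeq2's size factors or its test (-0.52 each). In Ly6Glow over NL neither was called with edgeR. With TMM factors H2afz was 0.11 and H2afv 0.087, and scalings that move all genes alike turned these signs, to -0.075 and -0.10 with upper-quartile factors and -0.58 and -0.51 on log2(FPKM + 1), or -0.034 and 0.032 relative to the shift of all genes. H2afz was called lower there and H2afv on log2(FPKM + 0.1), at -0.60 under a shift of -0.68. On FPKM within a library, H2afz exceeded H2afv by a mean of 28.5 times in Ly6Ghi, 25.9 in Ly6Glow and 25.4 in NL.

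As a class, the variant histones were lowest in NL, at 1330.5, 1379 and 1335 CPM in sum, against 2199, 2163 and 2169 in Ly6Ghi and 2469, 2519 and 2504 in Ly6Glow. Ly6Glow exceeded Ly6Ghi on CPM but not on FPKM, where the means were 1678 ± 8.45 in Ly6Ghi, 1629.6 ± 13 in Ly6Glow and 1267 ± 38.6 in NL (SD, n = 3). The H2A variants alone summed to 305 ± 3.8 CPM in Ly6Ghi, 213 ± 6.84 in Ly6Glow and 159.9 ± 4.63 in NL, and on FPKM to 257 ± 4.47, 145 ± 4.16 and 190.3 ± 4.73, so that Ly6Glow lay above NL on CPM and below it on FPKM.

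Genes of mitosis and of DNA replication were taken as lists to set beside the histones. Over all tested genes, 26.3% rose and 36.6% fell in Ly6Ghi over NL, and 9.29% and 15.9% in Ly6Glow over Ly6Ghi. In Ly6Glow over NL the shares were 28.7% and 40.8%. No list, here or below, was tested against these shares. All 12 tested mitosis genes rose in Ly6Ghi over NL and all 12 fell in Ly6Glow over Ly6Ghi, with medians of 1.90 and -2.80. Their summed level was 591, 598 and 598 CPM in Ly6Ghi, 113, 119 and 122 in Ly6Glow and 165, 174 and 171 in NL, with Mki67 the most abundant. In Ly6Glow over Ly6Ghi, Bub1 fell by 2.99, Ccnb1 by 2.96, Kif11 by 2.94 and Cdc20 by 2.90 on the log2 scale. H2afx, H2afz and H2afv were highest in Ly6Ghi as these genes were, whereas H2ac18, H2bc4, H2bc6 and the Hist1h2bq and Hist1h2br pair were highest in Ly6Glow, where the mitosis sum was lowest. Of 29 DNA replication genes, 7 rose and 3 fell in Ly6Ghi over NL, 26 fell and the others were not called in Ly6Glow over Ly6Ghi, and 1 rose and 21 fell in Ly6Glow over NL. The median changes were 0.22, -1.49 and -1.40. Their sum was 467, 458 and 461 CPM in Ly6Ghi, 226, 228 and 215 in Ly6Glow and 348, 335 and 329.9 in NL. Ccna2, the S-phase cyclin, had 28.7 ± 0.464, 3.42 ± 0.425 and 7.7 ± 1.14 CPM in these groups and Rrm2, a subunit of ribonucleotide reductase, 25.3 ± 0.13, 3.66 ± 0.465 and 9.45 ± 0.389 (SD, n = 3). Mcm2 of the replicative helicase was highest in NL (14.5 ± 0.473 CPM), and Cdk2 lowest there (21.2 ± 0.809 CPM). Replication-dependent histone sums thus ran in the opposite order to replication genes between Ly6Ghi and Ly6Glow, and whether both are linked was not tested.

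**Figure D5:**
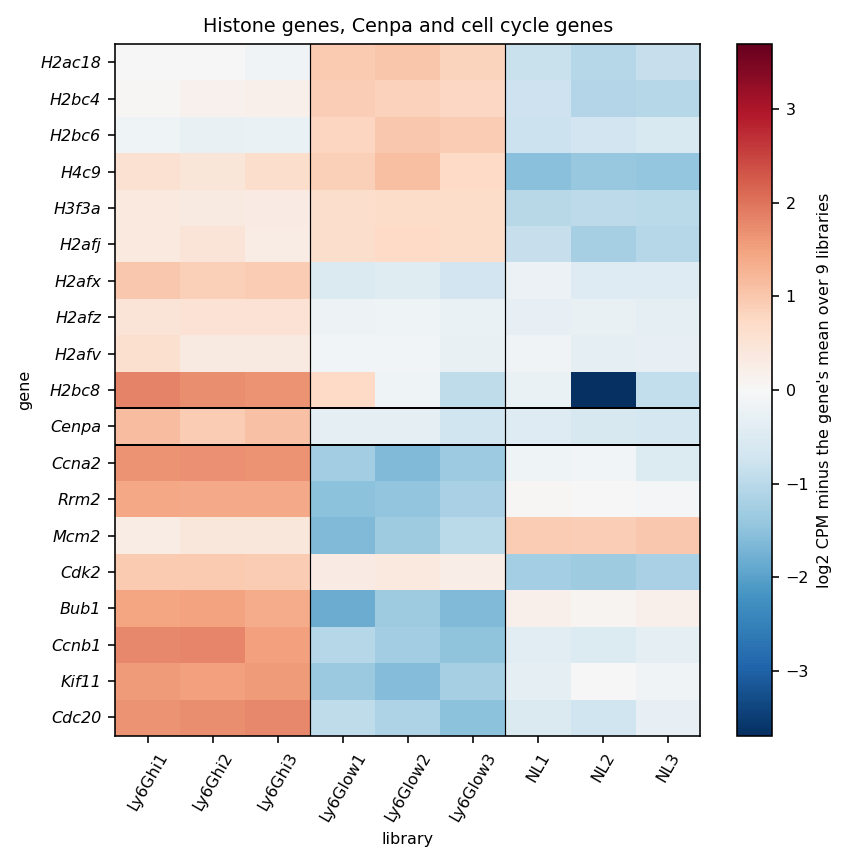
Heat map of 10 histone genes, chosen after their values were seen, with Cenpa and 8 named cell cycle genes below, as log2 CPM in each library minus the mean of the gene over the 9 libraries. H2afx, H2afz and H2afv were highest in the Ly6Ghi libraries, as the mitosis genes were (summed mean 596 CPM against 118 in Ly6Glow), while H2ac18, H2bc4 and H2bc6 were highest in Ly6Glow.

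Core histone variants outside the symbol rule and linker histones were also set beside the members. Of 4 tested variants, 2 rose and 2 fell in Ly6Ghi over NL, 1 fell and the others were not called in Ly6Glow over Ly6Ghi, and 1 rose and 2 fell in Ly6Glow over NL. Cenpa, the H3 variant of centromeres, had 26, 22.5 and 25.2 CPM in Ly6Ghi, 9.18, 9.33 and 7.09 in Ly6Glow and 8.58, 7.89 and 7.48 in NL, and so was highest in Ly6Ghi like H2afx. It rose by 1.62 (SE 0.0889, edgeR adjusted p = 1.72e-13) and fell in Ly6Glow over Ly6Ghi, at -1.52 (SE 0.0986, edgeR adjusted p = 1.54e-11). Macroh2a1, the most abundant of them, had 216 ± 2.53, 216 ± 8.75 and 119.6 ± 7.28 CPM (SD, n = 3) and rose in both macrometastatic groups over NL, by 0.85 and 0.86. Of 4 linker histone genes, 2 rose and 2 fell in each comparison with NL, while in Ly6Glow over Ly6Ghi 1 fell and the others were not called. H1f2 had 80, 78.2 and 81.1 CPM in Ly6Ghi, 95.7, 109 and 92.5 in Ly6Glow and 19.9, 18.5 and 20.2 in NL, the order seen for H2ac18. The replacement linker histone gene H1f0 ran in reverse, at 16.6 ± 1.68, 6.81 ± 0.963 and 25.6 ± 0.702 CPM (SD, n = 3).

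Genes that make and handle histones were read as lists as well. Of all tested genes, 26.3% rose and 36.6% fell in Ly6Ghi over NL, and 9.29% and 15.9% in Ly6Glow over Ly6Ghi. For Ly6Glow over NL these shares were 28.7% and 40.8%, and several counts below lie near them. Of 13 genes of histone mRNA transcription and 3-prime processing, 7 rose and the others were not called in Ly6Ghi over NL, 2 rose and 1 fell in Ly6Glow over Ly6Ghi, and 6 rose and 2 fell in Ly6Glow over NL, and Tut7 was the most abundant. Slbp, which binds the stem-loop, had 55.5, 50.4 and 58 CPM in Ly6Ghi, 54.7, 60.4 and 59.5 in Ly6Glow and 28.4, 31.8 and 28.7 in NL. It rose by 0.88 in Ly6Ghi over NL, and Lsm10 of the U7 particle by 1.36, Cpsf2 by 1.01 and Casp8ap2 by 0.94. Of 26 histone chaperone genes, 3 rose and 4 fell in Ly6Ghi over NL, 1 rose and 8 fell in Ly6Glow over Ly6Ghi, and 5 rose and 13 fell in Ly6Glow over NL. In Ly6Glow over NL, Ipo4 had a log2 fold change of -1.89, Rbbp7 of -1.65, Ssrp1 of -1.50 and Hjurp, the chaperone of Cenpa, of 1.18, each called. Of 11 H2A.Z exchange genes, 4 rose and 1 fell in Ly6Ghi over NL, 4 fell and the others were not called in Ly6Glow over Ly6Ghi, and 2 rose and 3 fell in Ly6Glow over NL. Anp32e, which removes H2A.Z, fell in Ly6Glow over Ly6Ghi by 1.32 and Actl6a by 1.1 on the log2 scale, while Ruvbl2 (0.99) and Znhit1 (1.41) rose in Ly6Ghi over NL. Of the 2 genes for enzymes that citrullinate histone H3, Padi4 had 496, 496 and 489 CPM in Ly6Ghi, 400.4, 408 and 394 in Ly6Glow and 163, 148 and 153 in NL. Padi4 was the 1 gene of this list called, and it rose in both comparisons with NL, by 1.68 and 1.37.

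Markers of neutrophils and of other cells were read in the same libraries. The 12 neutrophil markers summed to 102655, 100388 and 101119 CPM in Ly6Ghi, 85468, 87163 and 86846 in Ly6Glow and 23225, 23079 and 23041 in NL, led by S100a9, and all 12 rose in Ly6Ghi over NL. Neutrophil markers were thus present in all libraries and their sum was lowest in NL, where H2ac18, H4c9 and H3f3a were lowest too, although Camp was lower in Ly6Glow (159 ± 6.4 CPM) than in NL (188 ± 10.3 CPM, SD, n = 3). The 5 early neutrophil genes (led by Prtn3) summed to 91, 89.8 and 89.9 CPM in Ly6Ghi, 18.4, 17.2 and 16.2 in Ly6Glow and 4.18, 2.97 and 4.01 in NL, and all 5 rose in Ly6Ghi over NL and fell in Ly6Glow over Ly6Ghi. The 4 eosinophil genes (led by Prg2) summed to 52, 53.5 and 48.8, 7.07, 7.9 and 6.78 and 2.78, 3.92 and 3.29 CPM, and all 4 rose and fell in the same comparisons. These lists were highest in Ly6Ghi, as H2afx, H2afz and H2afv were. The 5 basophil and mast cell genes (led by Mcpt8) summed to 27.7, 27.7 and 25.6 CPM in Ly6Ghi, 15.4, 16.3 and 13.4 in Ly6Glow and 2.87, 2.92 and 2.7 in NL, with 4 called higher in Ly6Ghi over NL and 4 lower in Ly6Glow over Ly6Ghi. The 4 B cell genes (led by Cd79a) summed to 39.8, 41 and 41.3, 24.2, 24.6 and 25.8 and 22.1, 21.6 and 24.1 CPM, with 3 and 4 called in those directions. The part of these cells in the histone values was not tested.

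The summed markers of other cells were highest in NL. Sums in Ly6Ghi, Ly6Glow and NL were 1697, 1640.2 and 1654, then 355, 376 and 362, then 2172, 2207 and 2164 CPM for 12 alveolar macrophage genes (led by Chil3), of which 9 fell in Ly6Ghi over NL and 9 in Ly6Glow over Ly6Ghi. For 7 epithelial or tumor genes (led by Sftpc), all 7 lower in Ly6Ghi over NL, they were 93.7, 96.2 and 91.2, then 97.2, 99.3 and 93.7, then 1029.7, 928 and 1014 CPM. NL thus had the highest sums of both lists where its histone sums were lowest, although Chil3 itself, at 1274 ± 23.5 CPM in Ly6Ghi, 277 ± 10.3 in Ly6Glow and 964 ± 15.6 in NL (SD, n = 3), was highest in Ly6Ghi. Endothelial genes (4, led by Pecam1) summed to 112, 108 and 107 CPM in Ly6Ghi, 139.8, 137 and 132 in Ly6Glow and 697, 652 and 683 in NL, and fibroblast genes (4, led by Col3a1) to 43.6, 37.7 and 39.6, then 41.8, 43.6 and 39.6, then 467, 442 and 474, all called lower in both macrometastatic groups than in NL. Erythroid genes (7 with values, led by Hbb-b1) summed to 0.308, 0.354 and 0.433 CPM in Ly6Ghi, 0.569, 0.301 and 0.457 in Ly6Glow and 26.1, 22.4 and 22.9 in NL, with 4 called lower in Ly6Ghi over NL. This was the one list with genes at 0 in a whole group, which included Hbb-bt, Hbb-b2 and Hba-a2 in Ly6Ghi, Hbb-b1 and Hba-a2 in Ly6Glow, and Hbb-bt in NL. Monocyte and macrophage genes (8, led by Csf1r) summed to 488, 478 and 482, then 495, 479 and 476, then 593, 556 and 590.3 CPM, with 1 higher and 4 lower in Ly6Ghi over NL. T cell genes (5, led by Cd3d) summed to 42.8, 41.1 and 41.8, then 30.2, 30.1 and 30, then 63.5, 64.3 and 61.6 CPM, with 4 lower in Ly6Ghi over NL. No defining marker of these other lists was at 0 throughout a group. NK cell genes (3, led by Gzma) summed to 5.6, 4.84 and 5.26, then 1.87, 2.48 and 2.06, then 10.8, 10.9 and 10.4 CPM, and dendritic cell genes (5, led by Zbtb46) to 9.66, 9.86 and 7.86, then 10.4, 9.11 and 8.39, then 22.6, 23.9 and 27.8, with 2 and 5 lower in Ly6Ghi over NL. Epithelial, endothelial and fibroblast transcripts were thus read in all libraries of these cells sorted as CD45+. The part of RNA from any of the listed cells in the lower H2ac18, H4c9, H2afj and H3f3a values of NL was not tested.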

How the data were processed

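Neutrophils were sorted from lung in 3 groups of 3 libraries, grouped by the titles of the sample labels. The RNA was poly(A)-selected, libraries were strand-specific by the dUTP method, and 150 bp paired ends were read. The authors deposited an estimated count for each gene and library, without normalization. The authors also deposited an FPKM value for each, scaled by transcript length and fragment number. The genome build mm10 comes from the submitters' processing notes, while the aligner and counter are not given in the sources used here.

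Estimated counts, 37.9% of them whole (tolerance 1e-09), were rounded and tested in R 4.3.3 with edgeR 4.0.16 (filterByExpr by group, TMM, quasi-likelihood F test, all 9 libraries in 1 model of group means, Benjamini-Hochberg adjustment over 14108 genes). TMM factors were 0.945, 0.950 and 0.950 in Ly6Ghi, 0.807, 0.803 and 0.806 in Ly6Glow, and 1.30, 1.32 and 1.31 in NL. With 3 libraries a group, exact two-sided permutation p-values stop at 0.10, so none was used. The method was tested on simulated data. Replicates of each group differed by more than sampling noise, NL replicate 2 most, and all 9 were kept as separate samples. The common biological coefficient of variation was 0.0346. Every per-sample column was used, and 3739 genes with blank values were left out.

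Transcripts, whose sequences were searched for stem-loops, came from GENCODE M21 (GRCm38) and promoters from RefSeq (GRCm38.p6). The gene positions given are not always those of the GENCODE transcripts, as H2bc8 spans 464 bases and its 1-exon transcript has 618. Copies were compared by the share of stretches of 100 bases found in another member, and members sharing at least 50% in both directions were grouped as near-identical. Any tested member could be named, with, of each pathway list, up to 4 genes of largest change among those called with at least 10 CPM, and of each cell type list its most abundant gene and the genes at 0. The lists covered linker histones, other core histone variants, histone mRNA processing, chaperones, H2A.Z exchange, DNA replication, mitosis, histone H3 citrullination and 14 cell types. Members and lists were chosen with earlier results of these data known. One marker result is not reported here.

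Alternatives were DESeq2 1.42.0 and its size factors, upper-quartile factors, other filters and fold thresholds, the 6 libraries of a comparison alone, limma 3.58.1 on log2 FPKM, a replicate block, leaving out each library and, chosen after seeing the data, near-identical copies counted together.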

Additional observations from a re-analysis of the deposited data

How the results depend on the processing

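Of the values of single histone genes under other settings, 665 kept their sign and their side of the threshold, 63 lost a call, 19 gained one and 29 changed sign, and with 1 library left out these numbers were 522, 19, 19 and 7. Where values moved, the cause was not tested beyond what the setting itself does (more or fewer genes tested, another threshold). Counts cover every member a setting tested, 54 replication-dependent genes without the filter on low counts and in the FPKM settings without one, and 16 or 17 with 1 library left out.

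In Ly6Ghi over NL, replication-dependent genes called higher numbered 12 without the filter on low counts and 8 with limma on log2(FPKM + 0.1), and those called lower 1 without the filter. Of all genes, 3940 of 18299 and 1826 of 18317 were called higher in these 2 settings. Variant genes called higher numbered 3 in each of the 3 FPKM settings, and 1 was lower without a fold threshold. With 1 library left out, the ranges were 5 to 8 replication-dependent genes higher and 0 to 1 lower.

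In Ly6Glow over Ly6Ghi, replication-dependent genes called higher numbered 5 with DESeq2, 4 with at least 10 counts in every library, 3 on log2(FPKM + 1), 4 on log2(FPKM + 0.1), 4 with FPKM of at least 1 in 3 libraries and 4 with a fold threshold of 1. Those called lower numbered 1, 1, 4, 7, 1 and 1 in these settings and 5 without the filter. Variant genes called higher numbered 3 without a fold threshold, and those called lower 1 with a threshold of 1. With 1 library left out, 4 to 10 replication-dependent genes were higher and 1 to 3 lower.

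In Ly6Glow over NL, replication-dependent genes called higher numbered 5 with at least 10 counts in every library, and those called lower 0 with DESeq2, 2 without the filter, 0, 3 and 0 in the FPKM settings and 0 with a threshold of 1. Variant genes called higher numbered 5 without a fold threshold, and those called lower 2, 3 and 2 in the FPKM settings.

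Signs changed as follows, all of them in uncalled values with edgeR. On log2(FPKM + 1), log2(FPKM + 0.1) and with FPKM of at least 1, in that order, H2bc1 was -0.0131, -0.0078 and -0.0131 in Ly6Ghi over NL, H2bc18 -0.0048, -0.0019 and -0.0048, and H2ac20 -2e-04 in the first and last. In Ly6Glow over Ly6Ghi H3f3b was -0.0178, -0.0179 and -0.0178. In Ly6Glow over NL H3f3b was -0.5536, -0.5548 and -0.5536, H2afz -0.5801, -0.5841 and -0.5801, and H2afv -0.5146, -0.6038 and -0.5146, with H2afz called lower in all 3 and H2afv in the second of these. There, upper-quartile factors and at least 10 counts gave -0.0425 and -0.0354 for H3f3b, -0.0753 and -0.0683 for H2afz, and -0.1024 and -0.0956 for H2afv. H2bc21 in Ly6Ghi over NL was 0.0098 with DESeq2, 0.0069 without the filter and 0.01 with the size factors of DESeq2.

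With 1 library left out, values ranged in Ly6Ghi over NL from -0.12 to 1.23 for H2ac20, from -0.047 to 0.044 for H2bc21 and from -0.13 to 2.11 for Hist1h2bq. They ranged from -0.86 to 0.22 for H3c15 in Ly6Glow over Ly6Ghi and from -4.94 to 5.60 for H2ac19 in Ly6Glow over NL.

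The log2 ratio of summed levels moved on FPKM to 0.62, 0.50 and 1.12 for replication-dependent genes in Ly6Ghi over NL, Ly6Glow over Ly6Ghi and Ly6Glow over NL, and to 0.41, -0.042 and 0.36 for variant genes. DESeq2's size factors gave 0.26 and 0.98 for the latter pair of variant ratios.

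Replicate numbers are shared by the groups, and whether they pair libraries is not settled here. Deviations of same-numbered libraries from their group means correlated at -0.068 to 0.077. Such values cannot decide it, since much of each deviation can be sampling noise. With a replicate block, 6 replication-dependent genes were called higher in Ly6Glow over Ly6Ghi in place of 8, as Hist1h4n (0.63, edgeR adjusted p = 0.0546) and Hist1h2bq (1.30, edgeR adjusted p = 0.0587) lost their calls, and no other call of a histone gene changed. With near-identical copies counted together, chosen after the data were seen, the sums that replace H2ac18 and Hist1h2bq had the sign of these genes in every comparison, whereas H2ac19 alone was -1.19 in Ly6Glow over Ly6Ghi and its pair 0.94. The 40 untested members had at most 25.9 estimated counts in a library, and the reason for these low counts was not tested.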
